A study of Mus musculus with 4 samples.

Results

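Antisense RNA genes are genes whose transcript is copied from the strand opposite to another gene. In the deposited lists of m6A peaks of mouse embryonic stem cells, a peak was counted here when the authors' annotation gave its gene the class antisense RNA and it lay on chromosomes 1 to 19, X, Y or MT. There were 1101 such peaks of 46417 in 4 libraries, from 282 genes. They were divided by whether their exon blocks overlapped, by at least 1 bp, a peak of the same library on the other strand: 355 did and 746 did not. The libraries were 2 of Mettl5-/- cells, called knockout 1 and 2, and 2 of wild type cells, called wild type 1 and 2, all labelled as embryonic stem cells of strain C57BL/6N. Total RNA was fragmented and pulled down with an antibody against m6A before sequencing, and the authors called peaks in each library. No label tells cultures or clones apart within a genotype, so p-values measure the spread between these libraries, which may be technical.

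N6-methyladenosine (m6A) is a methyl mark on adenosines inside RNA. On messenger RNA and long non-coding RNA it is placed by the Mettl3-Mettl14 complex, most often at adenosines followed by cytosine, as in the letters GGAC. Mettl5 is a separate methyltransferase, known for an m6A in the ribosomal RNA of the small subunit. Antisense transcripts can share exons with the gene they face, begin at its promoter and run away from it, or lie within its introns. In stem cells the best known is Tsix, which is transcribed across Xist and keeps that gene, the trigger of X inactivation, from being switched on.

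Peaks of antisense genes overlapped windows around start sites of genes on the other strand more often than peaks of other genes did. A peak could cross part of a window without covering the start site. The window used ran from 250 bases before to 50 bases after each start site in RefSeq (GRCm38.p6, the assembly named mm10 in genome browsers). An opposite-strand window was crossed by 12.3% and 12.2% of the antisense peaks in the knockout libraries (95% Wilson intervals 9.16 to 16.4 and 8.68 to 16.9), and by 12.8% and 13.2% in the wild-type libraries (9.33 to 17.2 and 9.65 to 17.8). Among all other peaks it was 2.29% and 1.89% in knockout and 2.16% and 2.34% in wild type. The antisense share was thus the higher in every library. The intervals cover counting error only and treat peaks as independent, which peaks of the same gene are not, so they do not test this difference. No test is given, since the class means a place opposite another gene. Windows of the peak's own strand were crossed by 3.80% and 2.85% of antisense peaks in knockout and 2.92% and 3.02% in wild type, close to the 3.49% to 4.44% of other peaks. In all, 47 opposite-strand windows were crossed in some library, and 23 of them, of 21 genes facing 21 antisense genes, had a stretch covered in all 4 libraries.

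The sequences of 4 of these stretches are given 5′ to 3′ along the antisense RNA, as DNA letters of the RefSeq table, with GGAC in capitals. The first 3 belong to antisense genes that are among the strongest of the lists and are described below, and the last, chosen after the counts were seen, holds the most GGAC of the 23. The Tsix stretch does not lie under the strongest Tsix peak but under a weaker one, at a mean percentile of 57.1.
Tsix over the promoter of Xist (chrX:103483371-103483483, + strand): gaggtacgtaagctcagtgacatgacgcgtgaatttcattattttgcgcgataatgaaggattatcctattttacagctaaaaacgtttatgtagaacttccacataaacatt
C130013H08Rik over the promoter of Prmt6 (chr3:110250950-110251249, + strand): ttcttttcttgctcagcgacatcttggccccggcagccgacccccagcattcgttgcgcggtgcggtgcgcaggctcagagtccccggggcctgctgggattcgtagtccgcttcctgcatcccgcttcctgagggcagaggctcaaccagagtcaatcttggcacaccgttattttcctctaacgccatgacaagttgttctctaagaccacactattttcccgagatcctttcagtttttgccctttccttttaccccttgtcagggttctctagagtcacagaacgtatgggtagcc
D130020L05Rik over the start site of Ppp4r3a (chr12:101083653-101083703, + strand): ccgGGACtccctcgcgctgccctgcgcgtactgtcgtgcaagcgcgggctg
A630072M18Rik over the promoter of Rsbn1l (chr5:20951773-20952072, + strand): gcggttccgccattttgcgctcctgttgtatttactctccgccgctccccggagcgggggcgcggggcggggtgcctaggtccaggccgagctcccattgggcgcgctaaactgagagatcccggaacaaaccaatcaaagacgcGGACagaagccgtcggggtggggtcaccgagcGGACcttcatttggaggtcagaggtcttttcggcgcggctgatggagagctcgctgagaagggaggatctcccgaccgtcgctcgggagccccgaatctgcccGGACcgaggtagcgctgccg
The stretch of 113 bases ahead of Xist and the 300 bases of the Prmt6 window hold no GGAC in this orientation, the 51 bases at Ppp4r3a hold 1 and the 300 bases at Rsbn1l hold 3. The same stretch of all 32851 promoter windows holds GGAC in 33.6%, 66.1%, 17.5% and 66.1% of cases in the order of the sequences. The stretches at Xist, Prmt6, Ppp4r3a and Rsbn1l hold GGAC 0, 2, 0 and 1 times on the strand of the opposite gene. A match describes the sequence only.

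Antisense peaks made up a like share of every list. Of the peaks listed, 316 of 12699 and 246 of 10821 were antisense in knockout 1 and 2 (2.49% and 2.27%), against 274 of 11696 and 265 of 11201 in wild type 1 and 2 (2.34% and 2.37%). The mean share was 2.38% ± 0.152 in knockout and 2.35% ± 0.0164 in wild type (SD, n = 2 each). The difference of 0.0266 percentage points was below the SD of the knockout libraries, 1 of which lay above both wild-type libraries and the other below them (p = 1, two-sided exact permutation test, which cannot go below 0.333 with 2 against 2). These peaks named 231 and 183 genes in knockout and 201 and 198 in wild type. Read depth was not analysed here, and a gene without a peak may have been too little expressed to give one. Of the markers looked up in the lists, 6 of 10 pluripotent genes and 0 of 8 feeder fibroblast genes had a peak in all 4 libraries, beside 2 of 6 neural genes and 1 of 6 of primitive endoderm and trophoblast.

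About 1 in 3 antisense peaks had a peak facing it on the other strand. Overlapped peaks numbered 98 of 316 and 83 of 246 in the knockout libraries (31.0% and 33.7%, 95% Wilson intervals 26.2 to 36.3 and 28.1 to 39.9), against 90 of 274 and 84 of 265 in the wild-type libraries (32.8% and 31.7%, intervals 27.6 to 38.6 and 26.4 to 37.5). The genotype means were 32.4% ± 1.93 in knockout and 32.3% ± 0.812 in wild type (SD, n = 2 each), a difference of 0.104 percentage points (p = 1, two-sided exact permutation test). Among all other peaks the share was 5.07% and 4.60% in knockout and 5.19% and 4.93% in wild type. The difference was 27.4 percentage points on average and positive in 4 of 4 libraries. It is a description, since the class antisense RNA is given by the annotation to genes that lie opposite others, and overlap was the value by which these peaks were divided. Intervals here cover counting error only, and peaks of 1 gene are not independent.

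**Figure D1:**
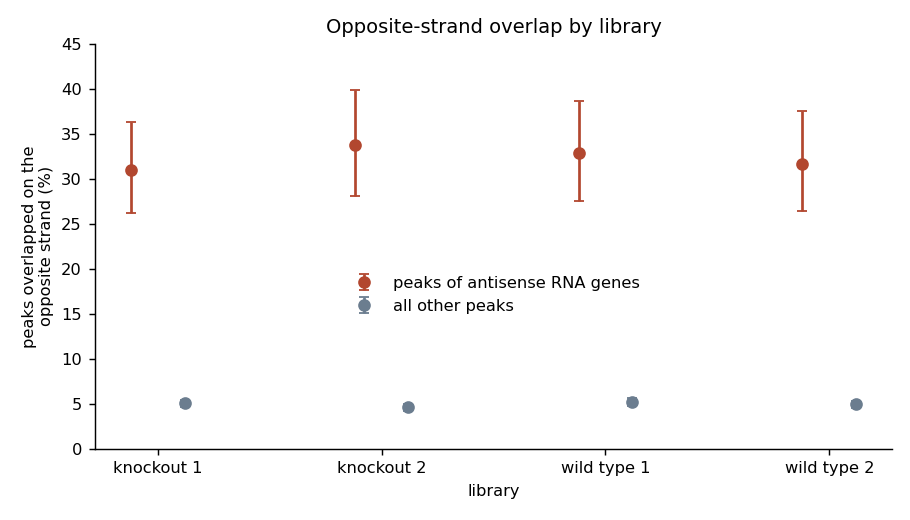
Share of peaks overlapped on the opposite strand (y axis, percent) in each library (x axis), for peaks of antisense RNA genes and for all other peaks; points are shares and bars 95% Wilson intervals. The antisense shares lie between 31.0% and 33.7% and the others between 4.60% and 5.19%.

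Most other non-coding classes lay between these values, and processed pseudogenes lay below both, at 3.16% to 3.86%. In processed transcripts 21.4% and 24.5% of peaks were overlapped in knockout, and 24.8% and 23.2% in wild type. The range over the 4 libraries was 16.4% to 19.8% for transcripts of the annotation class TEC, 14.3% to 18.3% for intergenic long non-coding RNAs and 4.10% to 4.61% for protein-coding genes. Most antisense peaks also lay within the body of a RefSeq gene of the other strand: 63.3% and 61.8% in knockout and 62.4% and 62.3% in wild type, against 9.21% and 8.13% of other peaks in knockout and 8.80% and 8.72% in wild type. For antisense peaks with no facing peak this share was 48.5% to 54.1%, so about as many of them lay outside a RefSeq gene of the other strand as inside one. The class itself means a place opposite another gene, so an excess here was set by the annotation. The file's gene class and RefSeq are separate annotations, and RefSeq held 114 of the 282 antisense genes.

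The facing peaks were mostly in exons of messenger RNAs, and protein-coding genes also made up most of each whole list. Of all listed peaks, 11180 of 12699 and 9692 of 10821 in knockout were of protein-coding genes, and 10468 of 11696 and 10033 of 11201 in wild type. Of the 355 pairs of an antisense peak and its strongest facing peak, which joined 111 antisense genes with 111 genes of the other strand, 339 had a protein-coding gene on the other side. The facing peak lay in coding sequence in 192 pairs (54.1%), in the 3′ untranslated region in 89 (25.1%), in the 5′ untranslated region in 32 (9.01%) and in an exon of no finer class in 42 (11.8%). No shares of these parts over all peaks are set beside them here. The facing peak covered a median of 96.3% of the antisense peak. The shared share of the pair, the bases in both peaks over the bases in either, had a median of 0.788.

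Many pairs were close to mirror images in position and in value. No pair had the same coordinates on both strands, but in 68 pairs the deposited log10 p-value and fold enrichment were the same to the last digit: 20 of 98 and 8 of 83 pairs in knockout and 24 of 90 and 16 of 84 in wild type. Such identity was found in 40 of the 109 pairs with a shared share of 0.9 or more and in 0 of the 118 under 0.5. Between neighbouring peaks that do not overlap, both values were the same in 0.789% and 0.574% of cases in knockout and 0.802% and 0.687% in wild type. Among pairs of a peak and its strongest facing peak with no antisense gene on either side, each pair counted once, 208 of 996 had both values the same (20.9%), beside 68 of the 355 antisense pairs (19.2%). Equal values were thus also found where no antisense gene was involved. The folds of the antisense and the facing peak lay within 1.5 times of each other in 243 pairs (68.5%). For a faced peak it is uncertain which of the 2 genes the signal came from. Nothing in the sources used here says whether the libraries or the peak calling kept the strand, and the part of strand assignment in these pairs was not tested.

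**Figure D2:**
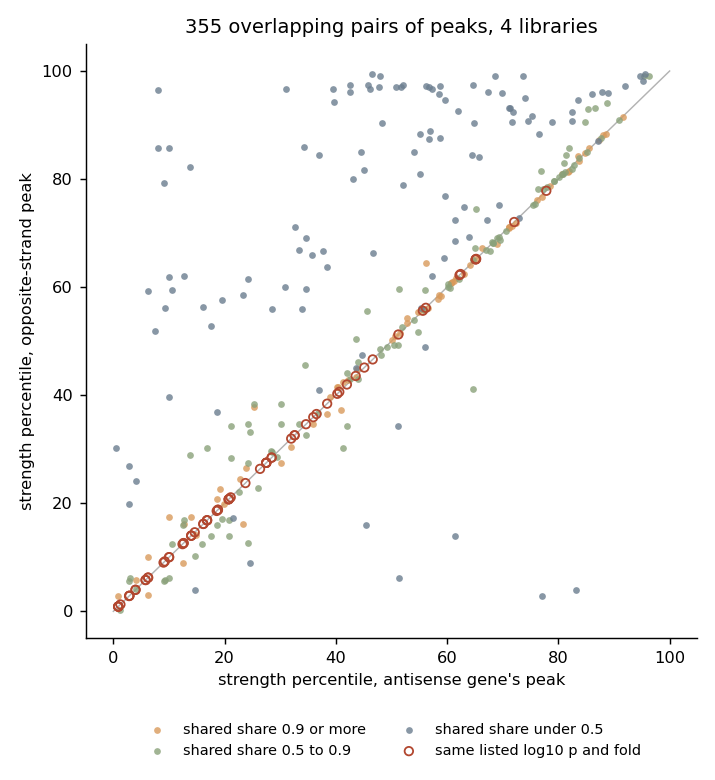
Strength of the antisense gene's peak (x axis) and of the strongest facing peak (y axis) in 355 pairs from 4 libraries, as percentiles of log10 p within the list, 100 being the strongest; colours give the shared share of the pair, rings mark pairs with the same deposited log10 p and fold, and the grey line is equality. Pairs that share 0.9 or more lie along the line, and those that share under 0.5 lie mostly above it.

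Pairs that shared little differed in another way: the antisense peak was mostly the weaker, and its median length was well below that of the facing peak. In the 118 pairs with a shared share under 0.5, the antisense peak was weaker in 106 and stronger in 12, with median percentiles of 51.6 for the antisense and 84.3 for the facing peak and median lengths of 269 and 1133 bases. In the 109 pairs sharing 0.9 or more it was weaker in 32, equal in 53 and stronger in 24, and the median difference was 0.0556 percentile points in size. Over all pairs the antisense peak was the weaker in 52.0% and 57.8% in knockout and 47.8% and 59.5% in wild type, 54.3% ± 5.40 over the libraries (SD, n = 4). The strongest facing peak stood for the other side, which favours this direction. The percentiles of the pairs had a Pearson correlation of 0.764 and 0.758 in knockout and 0.793 and 0.787 in wild type, a description over pairs that share a library and in part the same bases.

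Mirror pairs could be seen gene by gene. Gm9725 faced the coding sequence of Usp38, a deubiquitinase, with folds of 183 and 449 in knockout and 483 and 144 in wild type, and Usp38 had 128 and 433 in knockout and 484 and 157 in wild type at the same place (chr8:81013814-81014708, mm10). On both strands knockout 2 and wild type 1 had the high folds and knockout 1 and wild type 2 the low ones. Gm13066 and the 3′ untranslated region of Ctnnbip1, an inhibitor of beta-catenin, had percentiles that differed by little in every library: 83.7 and 85.1 in knockout and 81.8 and 80.7 in wild type for Gm13066, with 83.8 and 85.0 in knockout and 81.4 and 80.9 in wild type for Ctnnbip1. A further example, chosen after its values were seen for having the most identical pairs, is Zim3, an imprinted gene facing the imprinted gene Usp29. Its 8 peaks (2 and 2 in knockout, 3 and 1 in wild type) all had a Usp29 peak on the other strand, and in 5 of the 8 pairs log10 p and fold were the same. Their folds were low, from 7.23 to 17.4.

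Other pairs differed in strength or place. Gm11175 had folds of 169 and 242 in knockout and 572 and 343 in wild type (chr8:70699538-70700080, - strand), at percentiles of 95.6 and 91.9 in knockout and 95.3 and 94.8 in wild type. The facing peak of Jund, a transcription factor of the AP-1 family, was longer and stood at 99.5 and 97.3 in knockout and 98.2 and 99.1 in wild type. Gm27232 had folds of 84.5 and 46.1 in knockout and 335 and 202 in wild type, lower in both knockout libraries, while the facing coding sequence of the transcription factor Rfx7 had 471 and 334 in knockout and 422 and 615 in wild type. Folds are the authors' own per list, and no test compares them between lists. C130013H08Rik peaked at chr3:110250015-110251384 with folds of 516 and 127 in knockout and 280 and 466 in wild type. Its peak shared 0.530 to 0.540 with that of Prmt6, which encodes an arginine methyltransferase, and ran on across the start site and the whole promoter window printed above.

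The other strong genes with a facing peak had a best peak at a percentile above 80 in each list. Gm43579 was the strongest by mean percentile (96.2), with folds of 231 and 189 in knockout and 155 and 223 in wild type at chr5:120626790-120627621. A peak of the RNA helicase gene Ddx54 was listed on the other strand in knockout 2 and wild type 2 and not in knockout 1 or wild type 1, so the same antisense peak counted as overlapped in 1 library of each genotype. Zfhx2os and Gm20687 had a peak on the same strand and nearly the same bases of chromosome 14 in every library (from position 55072140 in knockout 1), which no peak faced, so their signal there cannot be told apart. A second peak, of both genes in knockout 1 and wild type 2 and of Zfhx2os alone in knockout 2 and wild type 1, faced the homeobox gene Zfhx2. BC037039, facing Pcdhgc3 of the protocadherin cluster, had percentiles of 87.7 and 81.8 in knockout and 82.4 and 81.1 in wild type.

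Tsix carried both kinds of peak side by side. Its strongest peak, at the 3′ end of the gene and upstream of the Xist start site (chrX:103483670-103484628, + strand), had folds of 278 and 150 in knockout and 617 and 343 in wild type. The percentiles were 89.0 and 87.0 in knockout and 89.3 and 90.2 in wild type. No Xist peak faced this Tsix peak in any library. It lay ahead of the start site, where RefSeq has no Xist exon, so that absence was set by the annotation. Both knockout folds were below both wild-type folds, while the percentile of knockout 1 lay within 1 point of wild type 1. Across and downstream of the Xist start site, 8 Tsix peaks faced Xist peaks, and 3 of the 8 pairs had the same log10 p and fold (12.8 in knockout 1, and 9.40 and 13.7 in wild type 1). In knockout 1 and 2 and in wild type 2 a single Tsix peak ran across the start site, starting at -0.377 kb, with folds of 47.3 and 50.8 in knockout and 56.2 in wild type 2. In wild type 1 no Tsix peak ran across the start site. Separate peaks were listed from -0.377 to -0.138 kb and from 0.132 to 0.88 kb, with folds of 13.0 and 16.6. The facing Xist peaks began 0.016 kb after the start site in knockout 1 and 2 and in wild type 2, and 0.136 kb after it in wild type 1.

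**Figure D3:**
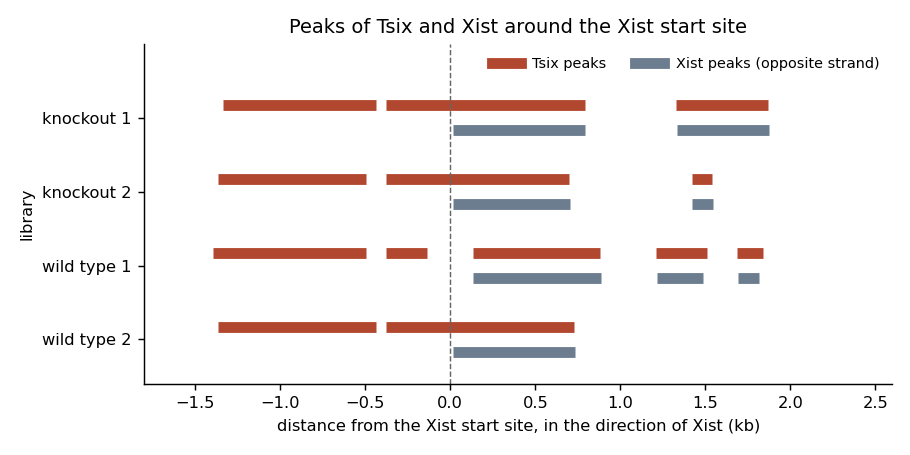
Peaks of Tsix and Xist by library (rows) along the distance from the Xist start site in the direction of Xist (x axis, kb; the dashed line is the start site); each bar runs from the first to the last base of 1 peak. Upstream of the start site, where RefSeq has no Xist exon, Tsix peaks are listed alone. Downstream every Tsix peak has an Xist peak over nearly the same bases.

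The antisense peaks were on the whole weaker than other peaks. Their median percentile of strength was 39.9 and 39.4 in knockout and 39.4 and 42.5 in wild type, where other peaks had medians of 50.2 to 50.4. The difference averaged -10.0 percentile points and was negative in 4 of 4 libraries (p = 0.125, two-sided exact sign-flip permutation test over libraries, the smallest it can give). Genotype means were 39.6 ± 0.353 in knockout and 40.9 ± 2.13 in wild type (SD, n = 2 each). Only 3.80% and 3.66% of antisense peaks in knockout, and 3.28% and 3.77% in wild type, were among the strongest 10% of their list. The median fold was 16 and 15.7 in knockout and 15.9 and 20 in wild type, against 19.2 and 25.4 for other peaks in knockout and 23.1 and 26.6 in wild type.

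Antisense peaks with a facing peak were stronger than those without one. The overlapped peaks had median percentiles of 47.4 and 44.0 in knockout and 43.8 and 51.1 in wild type. The peaks not overlapped had 39.2 and 35.1 in knockout and 37.3 and 39.1 in wild type. The difference averaged 8.89 points and was positive in 4 of 4 libraries (p = 0.125, two-sided exact sign-flip permutation test over libraries, the smallest it can give). Within the stronger 50% of each list it turned round, to -9.02 points, so the direction held for the lists as a whole and not for their stronger part. Overlapped peaks were also longer, with medians of 298 and 270 bases in knockout and 297 and 299 in wild type, against 233 and 235 in knockout and 264 and 262 in wild type for those not overlapped.

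**Figure D4:**
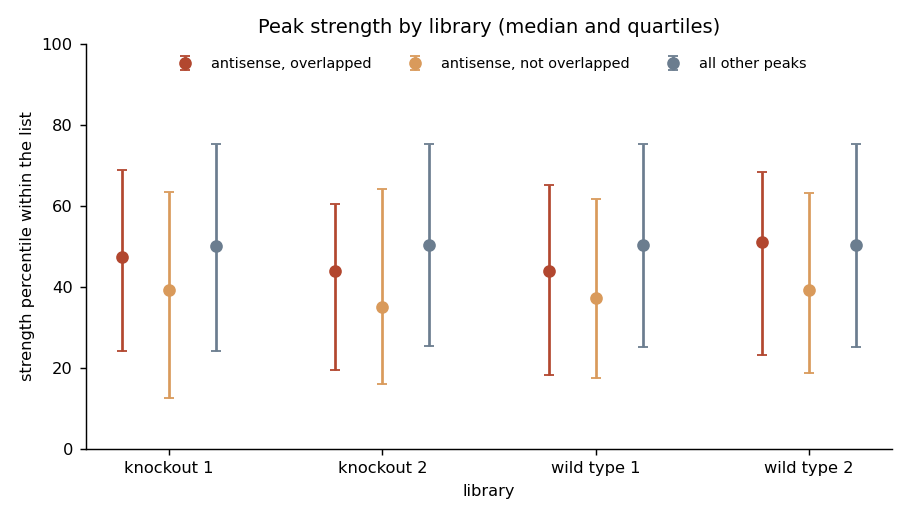
Percentile of peak strength within the list (y axis, 100 the strongest) by library (x axis) for antisense peaks with a facing peak, antisense peaks without one, and all other peaks; points are medians and bars run from the lower to the upper quartile. The medians of antisense peaks without a facing peak lie between 35.1 and 39.2, the lowest of the 3 classes in every library.

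Antisense peaks were shorter than other peaks, and most lay in 1 exon block. The median covered 240 and 240.5 bases in knockout and 268.5 and 268 in wild type, against 331 and 360 for other peaks in knockout and 359 and 360 in wild type. Both knockout medians lay below both wild-type medians, a difference of -28.0 bases, singled out after the values were seen, and an exact permutation test of 2 against 2 cannot go below p = 0.333. A single exon block held 95.9% and 95.1% of the antisense peaks in knockout and 95.3% and 95.5% in wild type, against 88.8% to 89.5% of other peaks. Where RefSeq held the gene, each gene was divided into 3 equal parts from its start. This covered 136 of 316 and 115 of 246 antisense peaks in knockout, and 130 of 274 and 113 of 265 in wild type. No such shares for other peaks are set beside them here. The last part held 44.9% and 40.9% of the peaks in knockout and 50% and 44.2% in wild type, the first part 26.2% to 33.9% and the middle part 17.6% to 20%. Lists also held peaks that overlapped on the same strand, 39 and 25 of the antisense peaks in knockout and 24 and 21 in wild type. Counts of peaks therefore count some places more than once.

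Among antisense genes listed in all 4 libraries and with no facing peak in any, the strongest were mainly little-studied. Genes that also had a faced peak were left out here, even where their strongest peak was not faced, as at Tsix. D130020L05Rik, which faces the start of Ppp4r3a, a regulatory subunit of a phosphatase, had percentiles of 99.5 and 93.7 in knockout and 94.1 and 99.1 in wild type (chr12:101082660-101083792, + strand). Its folds were moderate, 79.4 and 20.1 in knockout and 47.0 and 43.9 in wild type. Gm17122 had percentiles of 99.5 and 93.3 in knockout and 99.4 and 93.8 in wild type, with the same bases listed in every library (chr5:113842601-113843116, + strand). Its log10 p was finite in knockout 2 and wild type 2, with folds of 22 and 22.8. Peaks without a finite log10 p were tied at the top of a list, among them D130020L05Rik in wild type 2. High folds were found at 1700034P13Rik, 318 and 666 in knockout and 805 and 368 in wild type, again with the same bases throughout (chr1:9747648-9748512, + strand). Gm10550 had folds of 250 and 124 in knockout and 665 and 272 in wild type, and 1700052K11Rik with 336 and 409 in knockout and 763 and 276 in wild type. The remaining 4 of these genes with Rik or Gm names (1500015A07Rik, Gm44732, Gm44832 and Gm15886) had mean percentiles from 86.8 to 89.4.

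Summed over the 4 libraries, Tug1 and Kcnq1ot1 carried more peaks than any other antisense gene (22 and 31), though Tsix had more than Tug1 in wild type 1. No Tug1 or Kcnq1ot1 peak was faced by another. Tug1, a long non-coding RNA conserved between mammals, had 6 and 5 peaks in knockout and 4 and 7 in wild type along chr11:3639845-3647780 (- strand). Its best peak, nearest to the start site, had folds of 662 and 266 in knockout and 927 and 484 in wild type. The numbers differed partly because wild type 1 listed as 1 peak what the others listed as several, and the 22 peaks joined into 4 regions, 3 of them found in all libraries. Kcnq1ot1, which runs antisense within Kcnq1 and silences neighbouring imprinted genes on the paternal chromosome, had 10 and 8 peaks in knockout and 9 and 4 in wild type. Its best peak lay at chr7:143258131-143259360 (- strand) in every library, with folds of 162 and 223 in knockout and 249 and 216 in wild type. The 31 peaks joined into 14 regions, of which 4 were found in all libraries and 6 in a single one.

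Of 51 known non-coding transcripts looked for, 5 had an antisense peak, the others being absent from this class of peak. Peaks that the others may have under another gene class were not counted. Beside Tsix, Tug1 and Kcnq1ot1, the 5 included Nespas, an imprinted antisense RNA of the Gnas cluster, and Evx1os, named for the homeobox gene Evx1. Nespas had 1 weak peak in knockout 2 (fold 3.98) and 1 in wild type 1 (fold 7.95), and none in knockout 1 or wild type 2. Evx1os had a peak in both knockout libraries, with folds of 11.2 and 18.7, and in neither wild-type library. By name, 152 of the 282 genes were numbered Gm genes and 72 were Rik genes. At least 1 facing peak was found for 67 of the Gm genes (44.1%), 23 of the Rik genes (31.9%) and 6 of the 28 genes whose name ends in os (21.4%). Among the 29 genes with other names it was found for 15 (51.7%), and among all 282 genes for 111 (39.4%). Over all genes it was never found for 171, always for 79 and for some peaks only for 32.

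Most antisense regions did not follow the genotype. Joining peaks between lists wherever blocks overlapped on the same strand gave 15972 regions, 373 of them antisense. Of these, 153 (41.0%, 95% Wilson interval 36.1 to 46.1) had a peak in all 4 libraries, where the share over all regions was 42.3%. A single library held 99 (26.5%, against 28.3% of all regions). Of these, 49 were of knockout 1, the longest list (13.1% of antisense regions, against 12.4% of all regions). Regions in 1 library were weak, with a median percentile of 8.28, against 54.9 for those in all 4. Of the 153 shared regions, 94 had no facing peak in any library, 46 had one in every library and 13 in some.

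A peak in both knockout libraries and neither wild-type library was found in 8 regions (2.14%), where 2.5% of all regions followed this pattern. The reverse was found in 8 regions as well (2.14%), where the share over all regions was 2.03%. Pairs of libraries that cross the genotypes gave 14 regions (knockout 1 and wild type 1), 21 (knockout 1 and wild type 2), 10 (knockout 2 and wild type 1) and 5 (knockout 2 and wild type 2). In this order these were 3.75%, 5.63%, 2.68% and 1.34% of antisense regions, where the shares over all regions were 3.69%, 3.19%, 1.93% and 1.77%. The genotype pairs thus lay within the range of the crossed pairs. Leaving out 1 library, so that a genotype was judged from 1 list, gave 19 to 57 knockout-only and 16 to 32 wild-type-only regions, the highest counts being those without knockout 2 and without wild type 2. When only the stronger 50% of each list was kept, 2 regions were knockout-only and 1 was wild-type-only. They were not among the 8 and 8 above. Those 8 knockout-only regions had mean percentiles of 34.8 or less, and each of the 8 wild-type-only regions was below percentile 50 in a wild-type library. A region can join these groups when the cut removes its weaker peak in the other genotype.

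**Figure D5:**
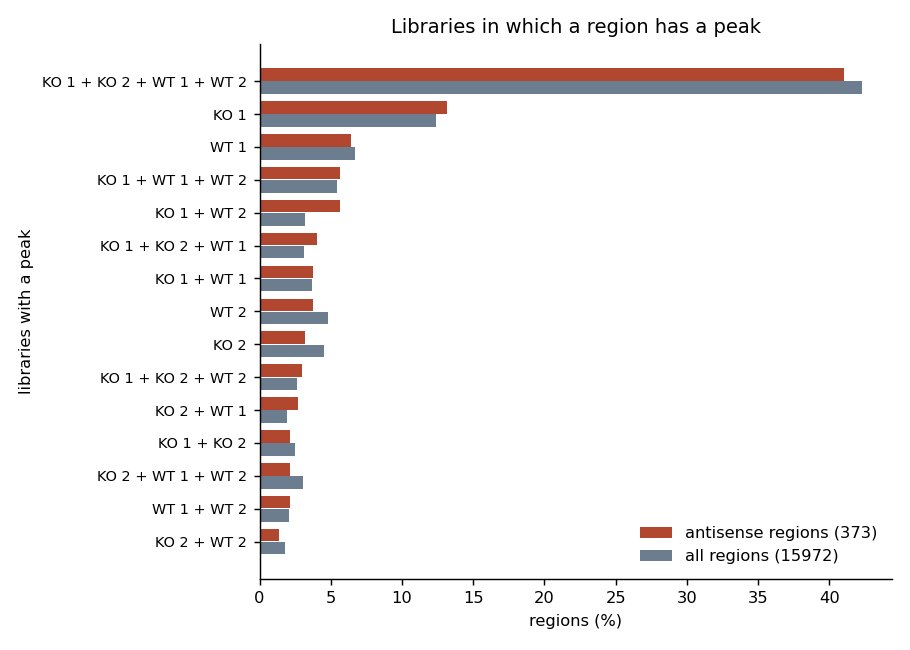
Share of regions (x axis, percent) found in each combination of libraries (y axis; KO is knockout and WT wild type), for 373 antisense regions and for all 15972 regions. Regions in all 4 libraries make up 41.0% of the antisense and 42.3% of all regions, and those of the genotype pairs 2.14% each, against 2.5% and 2.03%.

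The knockout-only regions were all of middling or low strength, with mean percentiles from 4.11 to 34.8. The strongest was a minor Kcnq1ot1 peak (chr7:143248384-143248564), with folds of 8.01 and 5.04, in a gene with stronger peaks in every library. Gm26592 followed, facing the adhesion molecule gene Icam5, with folds of 18.4 and 14.2 at chr9:21034439-21034767, and it had another peak in all 4 libraries. Tbx3os1, named for the T-box gene Tbx3, had folds of 12 and 19.4. The others were Evx1os, Gm28989, 1110035H17Rik, Lrrc8dos and 1 region of Zim3. None of the 8 had a facing peak in a wild-type library.

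The wild-type-only regions had mean percentiles from 1.53 to 52.3. The strongest, 1700034H15Rik, had folds of 30.4 and 28.5 at chr1:191907318-191907527 (- strand), with no peak on either strand in the knockout libraries. Gm44672 had folds of 27.5 and 30.3, and the Sec23ip exon facing it had 29.6 and 31.1 in the same libraries, with no peak on either strand in knockout. At AB041806 the strands differed: it was listed in neither knockout library, but the facing Fam43b peak was listed in knockout 1. Gm13523, 9430060I03Rik, Gm13966, Gm16098 and another region of Zim3 made up the rest. Zim3 thus stood in both groups with peaks at different places, and had at least 1 peak in all 4 libraries.

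Some regions missing from a library had a peak there on the other strand. Over all antisense regions and libraries there were 484 cases without a peak on the antisense strand, and in 58 of them (12%) a peak lay on the other strand at the same place, 15 of 81 and 10 of 151 in knockout and 17 of 120 and 16 of 132 in wild type. Where the antisense strand had a peak, 339 of 1008 cases (33.6%) had one on the other strand. Of the 220 regions found in fewer than 4 libraries, 20 had a facing peak in all 4, and 174 regions were listed in all libraries on either strand, against 153 on the antisense strand. An example, named after its values were seen, is A930015D03Rik facing H2-T22, which was listed in knockout 1 and wild type 1 alone at a mean fold of 410.5, with a facing peak in all 4 libraries.

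Lists of antisense regions were about as alike across genotypes as within them. The Jaccard index of antisense regions, those shared over those in either list, was 0.572 for the knockout pair and 0.625 for the wild-type pair, and 0.594 to 0.644 for the crossed pairs. Over all regions it was 0.585 for the knockout pair and 0.654 for the wild-type pair, the highest of the 6 pairs, and 0.614 to 0.644 for the crossed pairs.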

How the data were processed

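Peak lists of m6A-enriched RNA from 4 libraries of mouse embryonic stem cells were used, 1 list per library, with genotypes taken from the labels. Per the submitters' processing notes, HISAT2, HOMER and mm10 were used, with no role given. The sources used here name neither the peak caller and its settings nor the input, and do not say whether strand was kept. Each deposited peak has a p-value (listed as a score), its log10 and the log10 of an adjusted p-value, which were entered here as scores, and a fold enrichment, a ratio whose background the files leave unnamed. These are the authors' values for each peak and were used to describe, rank or filter within a list. The lists hold 10821 to 12699 peaks on the reference chromosomes, and 3 to 6 peaks off them were left out, 0 of them antisense.

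Strength was the percentile of log10 p within the list, ties taking the mean rank; 4 antisense peaks without a finite log10 were tied at the top. Overlap was counted on exon blocks, and regions were joined on the same strand. Tests were exact permutations over libraries, with Wilson intervals at 95%. The members and lists were chosen with earlier results of these data known. Named were listed known transcripts, the 10 strongest genes found in all libraries with and without a facing peak, and regions that followed the genotype, up to 10 each. Symbols were matched to RefSeq for 114 of 282 genes, 113 by symbol and 1 by synonym; promoter sequences are RefSeq's (GRCm38.p6). Overlap and region counting were tested on simulated lists and found what was planted. Alternatives were a 50% overlap, whole spans, an adjusted p-value under 0.05, the stronger 50%, lists of equal length, fold in place of log10 p, joining either strand, counting genes, and omitting 1 library at a time. Python 3.11.15, numpy 2.4.6, pandas 2.3.3, scipy 1.17.1 and matplotlib 3.10.9 were used.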

Additional observations from a re-analysis of the deposited data

How the results depend on the processing

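The knockout minus wild-type differences were near 0 and had no stable sign. In the antisense share of the list the difference was -0.00818 percentage points with an adjusted p-value under 0.05, -0.0186 in the stronger 50% and -0.00462 with lists of equal length, and ran from -0.0809 to 0.134 when 1 library was left out. In the overlapped share it was -0.646 points when 50% of the antisense peak had to be covered, -0.0786 with whole spans and -2.21 in the stronger 50%, and ran from -1.26 to 1.47 without 1 library. The greater overlap of antisense than of other peaks, which the annotation class itself brings (26.8 to 27.9 points without 1 library) and their lower percentile (-10.7 to -9.69) kept their direction under every alternative tried. The higher percentile of overlapped antisense peaks became -9.02 in the stronger 50%, and was 7.88 to 9.67 without 1 library. The share of antisense peaks weaker than the facing peak was 61.4% in the stronger 50%, and 52.6% to 56.5% without 1 library. Regions in all libraries, knockout-only and wild-type-only regions numbered 67, 2 and 1 in the stronger 50%. Without regions that had a facing peak in any library, an alternative added after seeing the data, they numbered 94, 5 and 5. When 1 library was left out they ranged from 164 to 174, from 19 to 57 and from 16 to 32. No paired analysis was possible because wild-type labels are unnumbered and none of these values is from a model fit. Read depth was not analysed here and limits which peaks are listed.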
